A study of Homo sapiens with 4 samples.

Results

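The regions described here are the H3K9me3 peaks on the arms of chromosomes 4 and 5, large chromosomes with few genes per megabase. A peak belonged to the set when its summit lay on chromosome 4 below 44600000 or from 56900000 to 189900000, or on chromosome 5 below 40600000 or above 55400000 (hg38). This leaves out the stretches around both centromeres and the subtelomeric repeats at the end of 4q. The set held 397 of the 4950 peaks of the series, 45 of 1165 in the NC list and 352 of 3785 in the OE-KDM4A list. No value of fold enrichment or q entered the choice.

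Both lists come from Ishikawa, a cell line established from a human endometrial cancer and grown here under the same conditions in both groups. The library called NC came from cells with no treatment, and the other from cells labelled OE-KDM4A. The sources used here do not say how KDM4A was overexpressed, or whether the cells were a pool or a clone. Each condition had 1 ChIP library and 1 input library, and values of the input alone were not analysed here. A difference between NC and OE-KDM4A therefore has no replicate check, and none was tested. Brackets hold exact 95% intervals, for counting error alone. Library depths are not given in the sources used here.

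H3K9me3 is trimethylation of lysine 9 on histone H3. It is bound by HP1 proteins, marks constitutive heterochromatin over repeats near centromeres and telomeres, and is also found over silent genes and repeats on chromosome arms. KDM4A is a demethylase that removes methyl groups from trimethylated H3K9. On chromosomes 4 and 5 long gene deserts alternate with clusters of genes, such as the protocadherin clusters of 5q and the UGT2 and ADH clusters of 4q.

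Only 4 peaks of the set touched a promoter window of the RefSeq table (250 bases before to 50 after a gene start, GRCh38.p14), 1 of 45 in NC and 3 of 352 in OE-KDM4A. These windows made up 0.263% of the arm bases, which is not a like measure, since peaks were counted by touching a window. Their upstream parts are shown because a called peak covers at least some of their bases. Each is given 5′ to 3′ on the strand of its gene, and capitals mark the bases under the peak. HMX1 (a homeobox transcription factor gene, minus strand, chr4:8871840-8872089) was touched in NC. CCDC149 (minus strand, chr4:24913043-24913292), LINC01596 (a long noncoding RNA gene, plus strand, chr4:189881265-189881514) and the paired starts of SLC12A2-DT (minus strand, chr5:128083176-128083425) and SLC12A2 (plus strand, chr5:128083516-128083765) were touched in OE-KDM4A. SLC12A2 encodes a sodium, potassium and chloride cotransporter. The CCDC149 window lies inside the span of its gene, and the summit there was 67.2 kb from the nearest protein-coding gene end. The SLC12A2 peak covered 13 bases of the SLC12A2-DT stretch and 36 of the SLC12A2 stretch, and its summit lay between them.
HMX1: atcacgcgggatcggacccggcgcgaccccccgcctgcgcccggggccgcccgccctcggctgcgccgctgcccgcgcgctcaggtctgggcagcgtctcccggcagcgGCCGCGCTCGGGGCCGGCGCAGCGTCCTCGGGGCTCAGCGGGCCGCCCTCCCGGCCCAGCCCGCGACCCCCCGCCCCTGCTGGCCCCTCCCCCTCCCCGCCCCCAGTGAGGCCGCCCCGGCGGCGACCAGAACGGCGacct
CCDC149: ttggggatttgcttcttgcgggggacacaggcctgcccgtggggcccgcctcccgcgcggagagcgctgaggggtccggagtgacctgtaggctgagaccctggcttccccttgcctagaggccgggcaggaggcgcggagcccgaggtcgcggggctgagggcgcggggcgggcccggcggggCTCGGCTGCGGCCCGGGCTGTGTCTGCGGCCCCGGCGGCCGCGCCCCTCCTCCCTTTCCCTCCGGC
LINC01596: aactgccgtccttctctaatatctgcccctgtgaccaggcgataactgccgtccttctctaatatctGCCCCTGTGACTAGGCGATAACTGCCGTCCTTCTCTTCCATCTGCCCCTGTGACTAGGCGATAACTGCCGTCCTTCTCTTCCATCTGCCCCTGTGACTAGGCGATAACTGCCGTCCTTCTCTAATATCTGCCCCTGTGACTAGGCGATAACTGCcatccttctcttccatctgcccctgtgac
SLC12A2-DT: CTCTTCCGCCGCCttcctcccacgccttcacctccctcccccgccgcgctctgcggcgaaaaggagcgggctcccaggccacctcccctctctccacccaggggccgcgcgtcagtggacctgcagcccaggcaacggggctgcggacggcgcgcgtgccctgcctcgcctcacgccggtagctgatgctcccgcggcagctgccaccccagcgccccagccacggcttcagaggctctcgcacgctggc
SLC12A2: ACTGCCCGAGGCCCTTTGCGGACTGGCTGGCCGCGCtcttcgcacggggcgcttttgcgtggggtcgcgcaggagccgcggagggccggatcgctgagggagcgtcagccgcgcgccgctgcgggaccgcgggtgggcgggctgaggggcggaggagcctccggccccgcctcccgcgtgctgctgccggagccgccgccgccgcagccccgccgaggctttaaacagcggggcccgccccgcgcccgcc

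The HMX1, CCDC149 and SLC12A2 stretches were rich in G and C. GC content was 83.6% at HMX1, 77.2% at CCDC149, 74.4% at SLC12A2-DT and 79.6% at SLC12A2, against a median of 54% (quartiles 41.6% and 66.4%) over the 3331 promoters of these arms. HMX1 and SLC12A2 each held 40 CpG dinucleotides in 250 bases, where the median promoter of these arms held 8. The GC box GGGCGG, searched on both strands, occurred 6 times at HMX1, 3 times at SLC12A2 and 1 time at CCDC149. It was not in the other windows, and 37.3% of the promoters of these arms held it. LINC01596 was unlike the rest, with 53.6% GC and a tandem repeat: shifted by 43 bases, its stretch matched itself at 94.7% of positions. Reads from such repeats can be placed on other copies. The peak on it also stood on the highest background of the set, 7.78 fragments, with a fold enrichment of 2.62. The peaks had a −log10 q of 1.38 at HMX1, 1.88 at CCDC149, 1.85 at LINC01596 and 4.14 at SLC12A2.

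The arms of chromosomes 4 and 5 held few NC peaks and many OE-KDM4A peaks. NC had 0.131 peaks per Mb (0.0953 to 0.175) and OE-KDM4A 1.02 per Mb (0.918 to 1.14) over 344.3 Mb. The ratio of peak numbers was 7.82 (5.72 to 10.9). On the arms of the other autosomes it was 3.41 (3.10 to 3.75), from 0.258 NC peaks and 0.879 OE-KDM4A peaks per Mb. Chromosome 12 had a like ratio, 7.28 (5.21 to 10.4), at 0.334 NC and 2.43 OE-KDM4A peaks per Mb, and chromosome 3 stood at 6.31 (4.42 to 9.23). By NC density chromosome 4 ranked 22 and chromosome 5 ranked 20 of the 22 autosomes, and by OE-KDM4A density they ranked 6 and 4. By protein-coding genes per Mb of arm they ranked 20 and 18. The set made up 7.45% (5.49 to 9.84) of the autosomal arm peaks in NC and 15.6% (14.1 to 17.2) in OE-KDM4A, and its arms made up 13.7% of autosomal arm bases. The differences between chromosomes were not tested.

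Within the set NC density was higher on the short arms. Density in NC was 0.269 per Mb (0.139 to 0.470) on 4p and 0.0677 per Mb (0.0309 to 0.128) on 4q, from 12 and 9 peaks. On 5p it was 0.222 per Mb (0.101 to 0.421) and on 5q 0.119 per Mb (0.0666 to 0.196). The intervals met on chromosome 5 and did not on chromosome 4. OE-KDM4A had the opposite order, with 0.830 per Mb (0.584 to 1.14) on 4p against 1.02 (0.858 to 1.21) on 4q, and 0.714 per Mb (0.478 to 1.03) on 5p against 1.19 (1.01 to 1.40) on 5q, and its intervals met on both chromosomes. The ratio of OE-KDM4A to NC was 3.08 (1.57 to 6.49) on 4p and 15.1 (7.73 to 33.8) on 4q, and 3.22 (1.49 to 7.74) on 5p and 10.0 (5.87 to 18.3) on 5q.

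Peaks of both lists were small and shallow. The fold enrichment is a linear ratio that the authors give for each summit, ChIP over background. The sources used here do not say whether the input supplied that background. The q is the authors' p adjusted for false discovery. The median −log10 q was 2.60 (quartiles 1.86 and 3.61) in NC and 2.66 (1.85 and 4.55) in OE-KDM4A. Median fold enrichment was 4.67 and 4.72, and median width 144 and 132 bp. From fold and p the number of ChIP fragments stacked at each summit and the background there were recovered for all 45 and all 352 peaks. The pileup ran from 7 to 22 fragments in NC (median 8) and from 7 to 26 in OE-KDM4A (median 9). A −log10 q of at least 10 was reached by 1 NC peak (2.22%, 0.0562 to 11.8) and by 7 OE-KDM4A peaks (1.99%, 0.803 to 4.05). On the arms of the other autosomes the shares were 6.80% and 5.56%. They were 5.00% and 1.03% on chromosome 12, and 13.9% and 5.73% on chromosome 3.

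The background differed between the lists in how often it sat at its minimum. In OE-KDM4A, 246 of 352 peaks (69.9%, 64.8 to 74.6) stood at the lowest background of that list, 0.905 fragments, against 52.7% on the other arms. In NC, 6 of 45 (13.3%, 5.05 to 26.8) stood at the lowest value, 0.811, against 5.72% (3.95 to 7.99) on the other arms. At this minimum q depends on the pileup alone. In OE-KDM4A 68 peaks with 7 fragments had a −log10 q of 1.85, 58 with 8 fragments had 2.66 and 53 with 9 fragments had 3.58. Over the whole OE-KDM4A set, pileups of 7, 8, 9 and 10 fragments made up 77, 68, 77 and 46 of the 352 peaks. The part of the background in the number of called peaks was not tested.

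**Figure D1:**
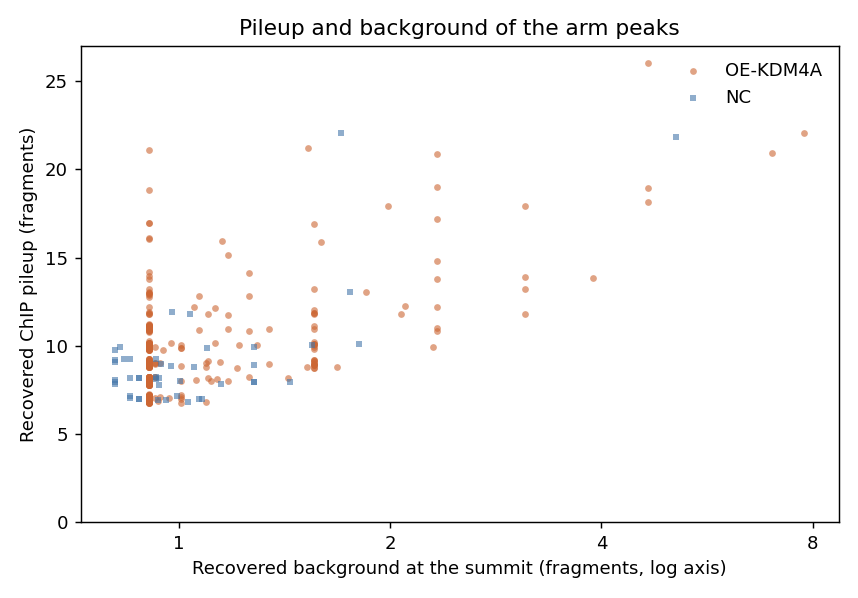
Each point is 1 peak on the arms of chromosomes 4 and 5, with the background recovered at its summit on a log axis (x, fragments) and the recovered ChIP pileup (y, fragments, with a small vertical jitter). The column of OE-KDM4A points at 0.905 fragments holds 246 of 352 peaks, and pileup starts at 7 fragments in both lists.

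Counted in 1-Mb bins, the NC peaks left most bins empty and the OE-KDM4A peaks spread over most of the arms. Of 345 bins, 307 (89.0%) had no NC summit, 38 had at least 1 and 1 had 3. In OE-KDM4A 141 bins (40.9%) were empty, 96 held at least 2 summits and 27 (7.83%) at least 3. Over all autosomal arms the share of bins with at least 3 was 0.518% in NC and 7.77% in OE-KDM4A, so the share in this set lay near that of the arms in general. The variance of the OE-KDM4A bin counts was 1.03 times their mean on chromosome 4 and 1.69 times on chromosome 5. On chromosomes 3 and 12, with no bins left out, it was 2.04 and 2.76 times. Without the largest dense block described below it was 1.13 times on chromosome 5. That block was picked for its high counts in these same bins, so a lower value follows from the choice. In NC the variance was 1.37 times the mean on chromosome 4 and 1.11 times on chromosome 5. On chromosomes 3 and 12 it was 1.05 and 1.12 times in NC. Of the 38 bins with an NC summit 21 also had an OE-KDM4A summit, and of the other 307 bins 183 had one.

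Long runs of bins had peaks of 1 list alone. No NC summit lay from 141 to 184 Mb of chromosome 4, 43 bins that held 36 OE-KDM4A summits, or from 81 to 112 Mb of chromosome 5, 31 bins that held 61. The longest runs without an OE-KDM4A summit were 8 bins from 5 to 13 Mb of chromosome 5, where NC had 2 summits, and 7 bins from 169 to 176 Mb of chromosome 5, where NC had 1.

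**Figure D2:**
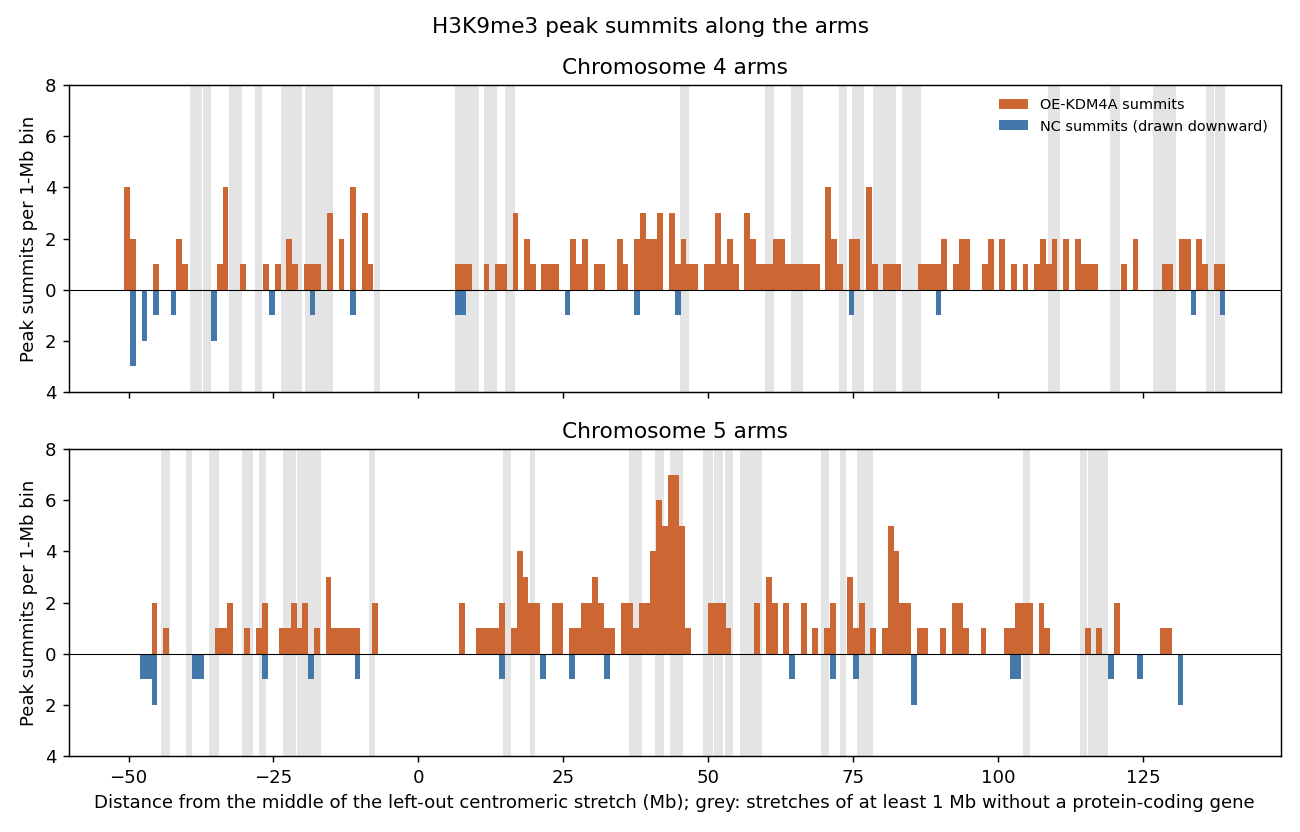
Peak summits per 1-Mb bin along the arms of chromosomes 4 and 5, against the distance in Mb from the middle of the left-out centromeric stretch, with OE-KDM4A upward and NC downward. Grey bands are stretches of at least 1 Mb without a protein-coding gene. The highest OE-KDM4A bins, with 7 summits each, lie on the long arm of chromosome 5, and the highest NC bin, with 3, lies near the tip of 4p.

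The NC summits lay more in gene-rich bins and the OE-KDM4A summits followed the bins at large, a description of 45 and 352 summits with no test. The 45 bins touched by 10 or more protein-coding genes (13.0% of bins) held 16 NC summits (35.6%) and 42 OE-KDM4A summits (11.9%). The 45 bins with no protein-coding gene held 3 NC summits (6.67%) and 46 OE-KDM4A summits (13.1%). Per bin, NC had 0.0667 summits in bins without genes and 0.356 in those with 10 or more, while OE-KDM4A stood at 1.02 and 0.933. The fullest NC bin, 1 to 2 Mb of chromosome 4 with 3 summits, was touched by 19 protein-coding genes. Another 5 bins had 2 summits each, from 3 to 4 and from 15 to 16 Mb of chromosome 4 and from 2 to 3, 133 to 134 and 179 to 180 Mb of chromosome 5. Around a summit the median number of protein-coding genes within 1 Mb on either side was 6 per Mb (quartiles 3 and 11.5) in NC and 3 per Mb (1.5 and 5.5) in OE-KDM4A, with 3.5 per Mb around bin centres.

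**Figure D3:**
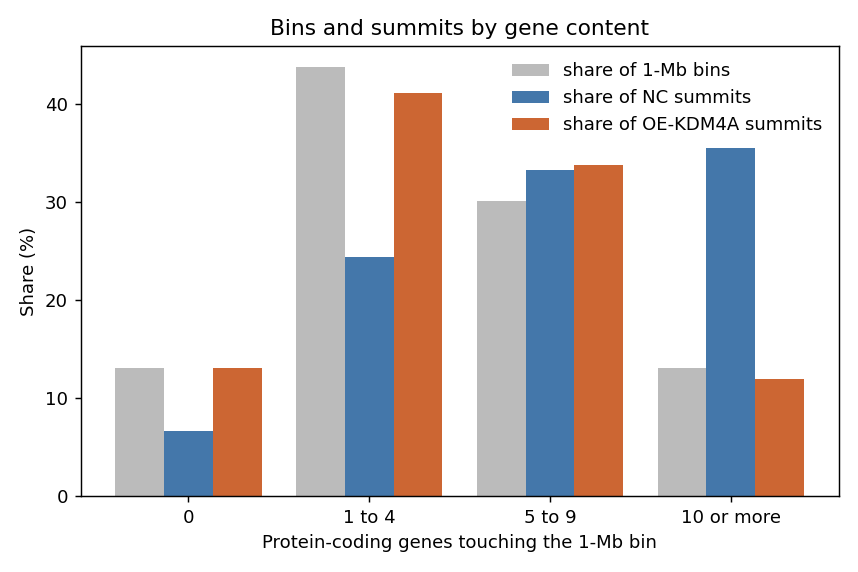
Share in percent of the 345 1-Mb bins (grey), of the 45 NC summits (blue) and of the 352 OE-KDM4A summits (orange), by the number of protein-coding genes touching the bin. The OE-KDM4A shares stay close to the bins, while bins with 10 or more genes hold 35.6% of the NC summits and 13.0% of the bins.

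Summits near gene ends were few in both lists. An end of a protein-coding gene lay within 1 kb of 2 of 45 NC summits (4.44%, 0.543 to 15.1) and of 7 of 352 OE-KDM4A summits (1.99%, 0.803 to 4.05). Over all autosomal arms these shares were 13.1% and 2.97%, and the windows covered 1.69% of the bases of these arms. The NC summits were at HMX1, 23 bp from its end, and IRX2, an Iroquois homeobox gene. Those of OE-KDM4A were at IRX2, CCNA2 (the cyclin A2 gene), SNX2 (a sorting nexin gene), SLC12A2, ADAMTS19 (a secreted metalloprotease gene), and USP17L22 and USP17L24. The last 2 belong to a family of deubiquitinase genes that lie in tandem on 4p in near-identical copies, so these 2 assignments are uncertain. Protein-coding spans held 44.4% of NC summits (29.6 to 60.0) and 37.2% of OE-KDM4A summits (32.2 to 42.5), and 38.2% of the arm bases.

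The OE-KDM4A list had 3 dense blocks on these arms, runs of at least 2 neighbouring bins with 3 or more summits each, and all 3 lay on 5q. NC had no dense block and no summit inside these 3, and 89.0% of all bins of the set had no NC summit. The largest ran from 88 to 94 Mb, 6 bins with 4 to 7 summits each and 34 in total, 5.67 per Mb. It held 19.0% of the OE-KDM4A members of chromosome 5. It held the fullest bins of the set, with 6 summits from 89 to 90 Mb, 5 from 90 to 91 Mb, 7 each from 91 to 92 and from 92 to 93 Mb, and 5 from 93 to 94 Mb. The others ran from 65 to 67 Mb, with 7 summits, and from 129 to 131 Mb, with 9, of which 5 were in its first bin. With bins shifted by 0.5 Mb the largest block ran from 87.5 to 94.5 Mb with 35 summits. At a fold enrichment of 5 or more 1 block was left, from 89 to 92 Mb of chromosome 5 with 13 summits. None was left at a −log10 q of at least 5, or with OE-KDM4A reduced to the number of NC members by q.

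Few protein-coding genes lie in the largest block, 11 in 6 Mb, and most of its summits lay between them. The block starts beside TMEM161B and MEF2C, which encodes a MADS-box transcription factor of muscle and nerve cells, and reaches beyond NR2F1, which encodes the orphan nuclear receptor COUP-TF1. Of the 34 summits, 3 were inside ADGRV1, a very large adhesion receptor gene, and 1 inside TMEM161B. Another 24 lay in the gene deserts from MEF2C to CETN3 and from ARRDC3 to NR2F1. Together these deserts make up 3.69 Mb of the 6 Mb of the block, so many summits there go with its make-up. The spans of MEF2C, CETN3, ARRDC3, an arrestin-family gene, and NR2F1 themselves held no summit in either list. Most genes hold none: 7.21% of the protein-coding genes of these arms held an OE-KDM4A summit and 1.28% an NC summit. In the first desert 5 of the summits lay in MEF2C-AS1, an antisense RNA gene of MEF2C that runs from that gene into the desert.

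The strongest peak of the block was at chr5:93266525-93266722, 317 kb before NR2F1. It had a fold enrichment of 10.5, a −log10 q of 15.3 and 19 stacked fragments over the lowest background, and ranked 2 of the 352. The next was at chr5:88107962-88108178, 77.5 kb from TMEM161B, with a fold of 8.92 and a −log10 q of 11.4. The third by q was inside ADGRV1 at chr5:90620286-90620437, with a −log10 q of 7.84. The other peaks of the block ran from a −log10 q of 1.51 to 5.62.

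The block was defined by its crowding, so its spacing is a description. Neighbouring summits within it were 1.73 to 664 kb apart, with a median gap of 98.0 kb, and the nearest neighbour was a median of 53.0 kb away against 302 kb for summits outside the block. Its median −log10 q was 3.58 against 2.66 outside it, with a median pileup of 9 fragments in both and 17.6% against 16.0% of peaks at a −log10 q of at least 5. The share at the lowest background was 67.6% inside and 70.1% outside, and the median background 0.905 in both. Over the whole set the nearest neighbour of a summit was a median of 239 kb away in OE-KDM4A and 3102 kb away in NC. In OE-KDM4A 14 summits formed 7 pairs less than 5 kb apart. Of these pairs, 2 were in the desert before NR2F1. The nearest protein-coding genes of another 4 were ZNF595, PIK3R1, ADAMTS19 and PANK3, from 13.9 to 163 kb away.

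**Figure D4:**
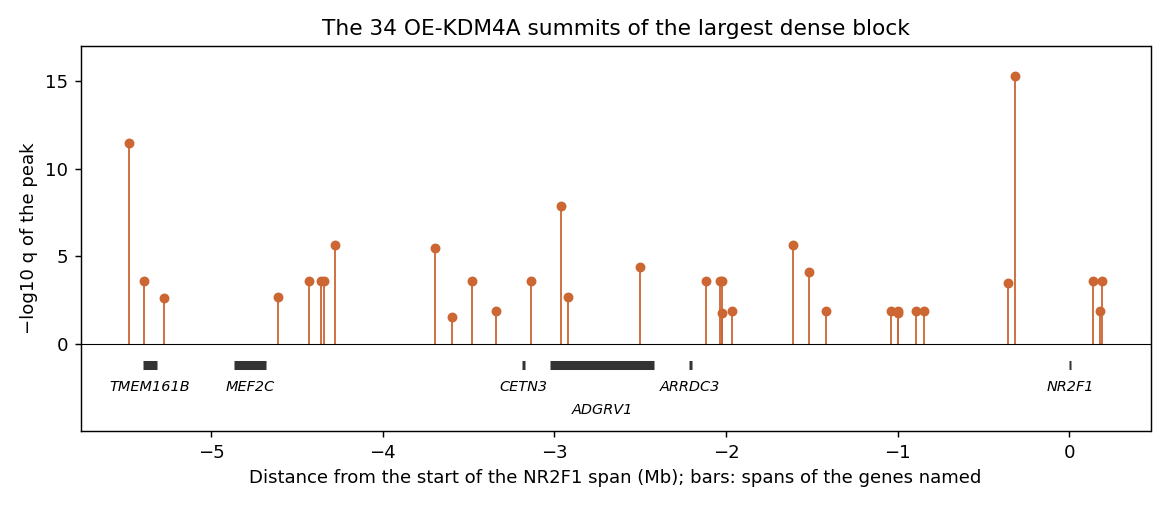
The 34 OE-KDM4A summits of the largest dense block, each as a line at its distance in Mb from the start of the NR2F1 span (x) with its −log10 q (y). Dark bars below the axis are the spans of the genes named. The tallest line, at 15.3, stands 317 kb before NR2F1. Of the 34, 24 lie in the deserts from MEF2C to CETN3 and from ARRDC3 to NR2F1, which make up 3.69 Mb of the block.

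Gene deserts, stretches of at least 1 Mb between neighbouring protein-coding genes, made up 27.2% of the arm bases in 47 stretches. They held 98 of 352 OE-KDM4A summits (27.8%, 23.2 to 32.8) and 7 of 45 NC summits (15.6%, 6.49 to 29.5). The OE-KDM4A share was thus near the share of bases. On the arms of the other autosomes deserts made up 17.5% of the bases and held 17.7% (16.0 to 19.5) of OE-KDM4A and 7.16% (5.16 to 9.62) of NC summits. In OE-KDM4A 37 deserts had a summit and 14 had at least 3, with a median of 0.737 per Mb. In NC 6 had a summit and none had 3.

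The OE-KDM4A summits were unevenly shared among deserts. The desert from ARRDC3 to NR2F1 held 15 in 2.20 Mb (6.82 per Mb) and that from MEF2C to CETN3 held 9 in 1.49 Mb (6.05 per Mb), with no NC summit in either. Without these the deserts held 22.6% of the remaining OE-KDM4A summits (18.2 to 27.5) and 26.4% of the bases. Both were left out for being the fullest, so a lower share follows from that choice. Next came the desert from PCDH7 to ARAP2, the longest at 4.86 Mb, with 6 OE-KDM4A summits and 1 in NC. The desert from EDIL3 to COX7C on 5q held 5 in 2.23 Mb and that from CDH10 to CDH9, between cadherin genes of 5p, held 4 in 2.24 Mb, both with none in NC.

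Several longer deserts held fewer summits. The desert from IGFBP7 to LOC124900173 held 3 OE-KDM4A and 2 NC summits in 4.09 Mb, the highest NC count of a desert. That from C4orf33 to PCDH10 held 3 in 4.03 Mb, that from AGA to TENM3 2 in 4.01 Mb, that from NUDT12 to EFNA5 2 in 3.81 Mb and that from STIM2 to LOC124900844 3 in 3.69 Mb. MAT2B to TENM2 held 1 in 3.46 Mb and LOC124901178 to CDH6 1 in 2.26 Mb, the latter with 1 in NC as well. The desert from PABPC4L to PCDH18 held none in 3.32 Mb in either list. No NC summit lay in the deserts after C4orf33, AGA, NUDT12, STIM2 and MAT2B.

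**Figure D5:**
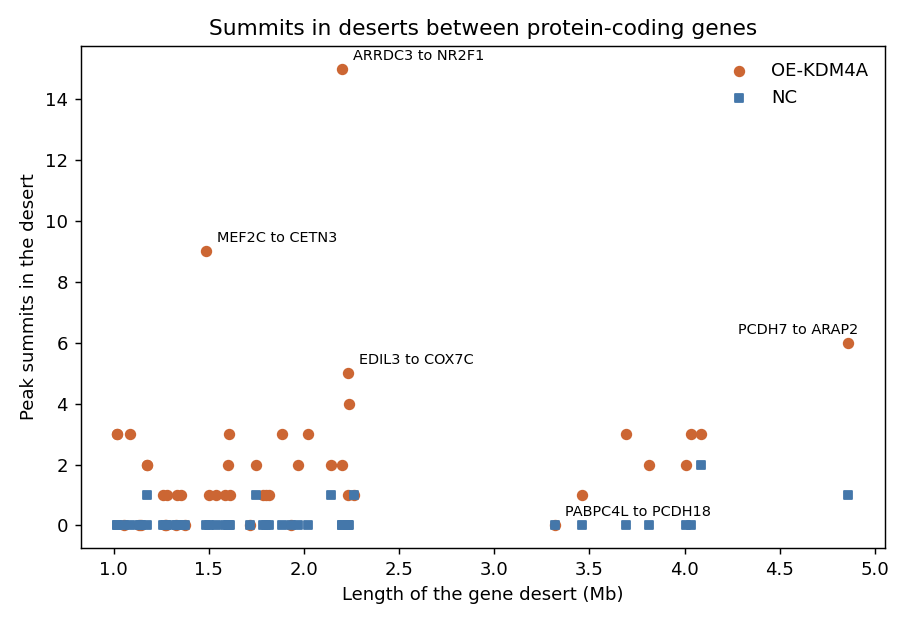
Each of the 47 gene deserts is plotted by its length in Mb (x) and its number of peak summits (y), in OE-KDM4A (circles) and NC (squares). The deserts from ARRDC3 to NR2F1 and from MEF2C to CETN3 stand above the rest at 15 and 9 summits although they are 2.20 and 1.49 Mb long.

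Genes with several summits were found in OE-KDM4A alone. Of the 1567 protein-coding genes of these arms, 113 held an OE-KDM4A summit in their span and 16 (1.02%) held at least 2, against 0.591% of the genes of all autosomal arms. In NC 20 genes held 1 summit and none held 2, against 0.039% on all autosomal arms. The 16 genes were long, with a median span of 432 kb and a range of 101 to 1553 kb, and the median over all genes of these arms was 40.0 kb. None of the 16 had an NC summit. These are raw counts, not corrected for span.

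Among them CCSER1, COL25A1 and ADGRV1 held 3 each. CCSER1 spans 1478 kb of 4q, and COL25A1, a transmembrane collagen gene, 494 kb of 4q. On 4q, 2 summits each were found in FAM13A, in TENM3, a teneurin gene of cell adhesion between neurons, in FAT4, an atypical cadherin gene, in SORBS2, an adaptor of the actin cytoskeleton, and in STOX2. On chromosome 5 they were found in PDE4D, a cAMP phosphodiesterase gene, in SV2C, a synaptic vesicle protein gene, in ADAMTS6, a metalloprotease gene, in BDP1, a subunit of the RNA polymerase III factor TFIIIB, in CDC42SE2 and in NPR3, the natriuretic peptide clearance receptor. Per Mb of span, NPR3 (19.8), BDP1 (16.3), FAT4 (11.2) and CDC42SE2 (10.8) were highest and PDE4D (1.29) lowest. These densities are high by choice, since the genes were picked for holding 2 or more. The strongest peak in any of the 16 was in STOX2, with a −log10 q of 9.83, and in the others the strongest ran from 2.66 to 7.84.

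Of all OE-KDM4A members 37.2% lay inside a protein-coding gene and 27.8% in a gene desert. Of the 9 strongest by q, 3 were inside such a gene and 3 in a desert, and 3 peaks tied for the tenth place. The first was at chr4:35321295-35321443 in the desert from PCDH7 to ARAP2, 684 kb from ARAP2. Its fold enrichment was 11.5, its −log10 q 18.0 and its pileup 21 fragments. The peak before NR2F1 was the next. Ranked 4 and 5, with a −log10 q of 12.7, were 2 peaks of chromosome 4. They lay at chr4:1435361-1435504, 29.0 kb from the homeobox gene NKX1-1, and at chr4:188558577-188558715 in the desert from TRIML1 to FRG1. The peak beside TMEM161B and one inside CHSY3, a chondroitin synthase gene (chr5:129994800-129994943), had a −log10 q of 11.4. Peaks inside STOX2 (9.83) and NWD2 (9.77) came next. The tied peaks, at 9.01, lay in USP17L22, in the desert from PDHA2 to STPG2 and in that from CTNND2 to DNAH5. The 5 highest folds, 11.5, 10.5, 9.45, 9.45 and 8.92 (shared by the peaks beside TMEM161B and in CHSY3), belonged to these. No NC peak overlapped any of these 12, and over the whole set only 3 of 352 OE-KDM4A members (0.852%) overlapped one.

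In NC the strongest peak was inside SYNPO, which encodes the actin-associated protein synaptopodin, at chr5:150649662-150649784. It had a fold enrichment of 8.51, a −log10 q of 13.1 and a pileup of 22 fragments. The next were inside TBC1D9 (chr4:140742319-140742476, −log10 q 6.10), IRX2 (chr5:2751175-2751316, 5.83) and CPEB2, an mRNA-binding protein gene (chr4:15003781-15003924, 4.81). A peak 62.5 kb from NREP had 4.76, one 8.62 kb from HSD17B4 had 4.19, and one at chr4:189652417-189652554, 288 kb from FRG1, also had 4.19, there with a fold of 3.76 over a background of 5.11. Both peaks of the desert beginning at IGFBP7 had 3.78, and one 79.7 kb from SLC30A5 had 3.69. The 5 highest folds, from 6.03 to 8.51, were at SYNPO, TBC1D9, IRX2, CPEB2 and near NREP.

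Only 3 regions of the set were called in both lists, and all lay on chromosome 5. This was 6.67% of the NC members (1.40 to 18.3) and 0.852% of the OE-KDM4A members (0.176 to 2.47). Over all autosomal arms the shares were 9.11% and 2.35%. At IRX2 the peaks had the same start and end, with a fold enrichment of 6.39 in NC and 6.37 in OE-KDM4A and a pileup of 12 and 18 fragments over a background of 1.04 and 1.98. Near HSD17B4, a peroxisomal beta-oxidation enzyme gene, the fold was 5.09 in NC and 7.35 in OE-KDM4A with 13 fragments in both, over a background of 1.75 and 0.905. In SYNPO the fold was 8.51 in NC and 3.35 in OE-KDM4A, with 22 and 18 fragments over a background of 1.70 and 4.67. In all 3 the summits lay within 8 bp of each other. The background differed between the lists in all 3, and its part in these folds was not tested.

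Gene lists of these arms were set beside the share of all genes, counting a summit in the span or 5 kb beside it. In OE-KDM4A 125 of 1567 protein-coding genes of these arms (7.98%) had one, against 5.28% on all autosomal arms, and in NC 24 (1.53%) against 2.58%. Of 40 genes of neuronal receptors, ligands and adhesion, 6 had a peak in OE-KDM4A (15.0%), among them GRIA1, TENM3, EPHA5, LRRTM2 and MARCHF1, and 2 in NC, SEMA5A and TENM2. MARCHF1 encodes a ubiquitin ligase known from antigen-presenting cells, not a receptor, ligand or adhesion protein, and stands in the list as it was drawn up. The LRRTM2 peak lay outside its span, inside CTNNA1. By span alone 5 genes of the list had an OE-KDM4A peak. The median span of the list was 200 kb. The strongest of these peaks was in the AMPA receptor gene GRIA1 (−log10 q 6.71). Of 15 cadherin genes outside the clusters, CDH18 and FAT4 had one in OE-KDM4A and no member had one in NC. By this rule none of 53 clustered protocadherin genes had a peak in either list, but OE-KDM4A peaks lay between and beside them. One was in the PCDHB@ locus, 9.49 kb from PCDHB6 (−log10 q 4.57), one 18.8 kb from PCDHB15 (4.57), and 2 lay 9.05 and 25.2 kb from PCDHA1 (2.66 and 5.62).

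Zinc finger and PRDM genes numbered 27. ZNF518B and ZNF827 had a peak in OE-KDM4A and PRDM6, a gene of the PR domain family, in NC. Those of ZNF518B and PRDM6 lay outside the span. Of 39 cell cycle genes, CCNA2 and CENPC, an inner kinetochore protein gene, had one in OE-KDM4A, with a −log10 q of 1.43 and 6.17, and NC had no peak at these 39. Of 45 genes in the liver and epithelial clusters of chromosome 4, UGT2A1, UGT2A2 and UGT2B4 had one in OE-KDM4A. The spans of UGT2A1 and UGT2A2 overlap and share 1 peak. Of 29 housekeeping genes, RPL9 and EIF4E in OE-KDM4A and HSPA4 in NC had a peak, each outside the span. The peak at RPL9 lay inside LIAS. None of 26 genes of chromatin and histone lysine methylation, and none of 11 ERR cofactor and nuclear receptor genes, PPARGC1A, PPARGC1B, NR3C1, NR3C2 and NR2F1 among them, had a peak in either list. A gene without a called peak may still carry the mark below the calling limit.

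The peaks nearest to the limits of the set showed where its edge falls. At the end of 4q the last OE-KDM4A member, on LINC01596, lay 18.6 kb inside the limit with a −log10 q of 1.85, and the first peak beyond was 198 kb outside with the same value. The NC peaks there were 248 kb inside (4.19) and 278 kb outside (21.1). On 5p the OE-KDM4A peaks were 260 kb inside (2.66) and 91.3 kb outside (7.26). Towards the centromere on 5q the last OE-KDM4A member had a −log10 q of 3.70, and the next peak, 5733 kb beyond the limit, had 298.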

How the data were processed

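H3K9me3 ChIP-seq peak lists of 2 libraries of Ishikawa cells, 1 labelled NC and 1 labelled OE-KDM4A, were analysed. Per the submitters' processing notes, Trimmomatic, Bowtie 1.1.2, MACS2 2.1.0 and hg38 were used, with no settings given in the sources used here, so whether the input served as control is not stated. In the deposited lists each line gives a fold enrichment (a linear ratio), −log10 p and −log10 q, and a score equal to 10 times the −log10 q cut to a whole number. Depth per library is not given. Lines sharing chromosome, start and end count as 1 peak, here the summit with the highest q. Summits were placed in 1-Mb bins counted from the chromosome start, with bins kept where at least 0.5 Mb lay in an arm. Arms of other autosomes exclude the longest gene-free stretch and 5 Mb on either side. Gene spans and promoters came from RefSeq (GRCh38.p14). Pileup and background were solved from the MACS2 formulas for fold and Poisson p, within 0.001 of the deposited −log10 p. No test between conditions was run. The recovery of pileup and background and the placing of summits in deserts were tested on simulated data, the other steps were not.

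Named regions were the 10 peaks of highest q (with ties) and 5 of highest fold per list, peaks of both lists, dense blocks, the 5 fullest bins, the 10 longest and 5 fullest deserts, genes with 2 or more summits and list genes with a peak. A few of these are not reported here. The members and lists were chosen with earlier results of these data known. Alternatives were limits on q and fold of at least 5, joined peaks, shifted bins, other desert, gene end and overlap rules, and OE-KDM4A at the NC number of members. Software was scipy 1.17.1, numpy 2.4.6 and pandas 2.3.3 under Python 3.11.15, with matplotlib 3.10.9 for plots.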

Additional observations from a re-analysis of the deposited data

How the results depend on the processing

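Limits on strength moved most values. At a −log10 q of at least 5 the ratio of peak numbers was 19.0, from 3 NC and 57 OE-KDM4A peaks, and with fold enrichment limited to 5 or more it was 11.2. The set's share of the NC list was 0.604% at that q, and its share of the OE-KDM4A list 4.13% at that q and 7.87% at that fold. The q limit left 292 empty bins, 0 bins with 3 summits, 0 dense blocks and 0 genes with several peaks in OE-KDM4A. The fold limit left 228 empty bins, 7 bins with 3 or more, 1 dense block (89 to 92 Mb of chromosome 5) and 6 such genes. List genes with an OE-KDM4A peak were 3 and 9 at these limits, from 17. In NC the 1 bin with 3 summits became 0 at both limits and with shifted bins. At the q limit, on 3 NC peaks, the NC shares were 0% in deserts, 33.3% near gene ends and 33.3% shared, with 0 list genes. The OE-KDM4A share near gene ends was then 5.26%.

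Within 5 kb of a protein-coding gene end lay 17.8% of NC and 7.67% of OE-KDM4A summits, and 7.36% of the arm bases. Within 1 kb of an end of any gene lay 8.89% of NC and 4.26% of OE-KDM4A summits, and 4.97% of the arm bases. Deserts of at least 0.5 Mb held 39.2% of OE-KDM4A summits and 39.7% of bases. Deserts between genes of any biotype shrank to 1 stretch, with 0% of NC and 0.284% of OE-KDM4A summits. List genes counted by span alone were 2 in NC, from 4. Cutting OE-KDM4A to 45 members by q, an alternative chosen after seeing the data, split 18 peaks tied at the last place by position, so it was also run with all of these kept (55) or left out (37). In that order, 0, 0 and 0 dense blocks were left, 6.67%, 5.45% and 8.11% lay near a gene end, 4.44%, 3.64% and 5.41% were shared and 24.4%, 25.5% and 27% lay in deserts. Most peaks rest on 7 to 9 stacked fragments, and 7 was the smallest pileup called in either list. No paired analysis was possible because each condition has 1 library and no test was run.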
